A study of Mus musculus with 1479 samples.

Results

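Wnt ligands and R-spondins were described in 1479 single cells of the mouse bladder through 9 genes chosen by name (Wnt2, Wnt2b, Wnt4, Wnt5a, Wnt10a, Wnt11, Rspo1, Rspo2 and Rspo3) out of 46517 gene rows. Each sample was 1 cell, sorted into a 384-well plate and sequenced with Smart-seq2, a full-length method without molecular identifiers. The cells came from male mice of 10 to 20 weeks: C57BL6 animals, which carry no reporter, and 4 lines with a fluorescent reporter. In Acta2GFP and PdgfrbGFP a transgene puts GFP under the control of the named gene, in Cspg4dsRED it does so with a red protein, and PdgfraGFP carries nuclear GFP knocked into the gene itself. The sort by reporter or antibody set which mesenchymal cells each line gave. The submitters' labels place every cell in 1 of 11 clusters, of which the study treats cluster 10 as vascular mural cells (smooth muscle cells and pericytes), cluster 5 as sub-epithelial fibroblasts and the others as fibroblasts, with cluster 4 left undefined. The 23 cells of cluster 4 are included wherever the fibroblast clusters are pooled. No animal is named, so the mouse line was taken as the replicate on the assumption that lines are separate mice. Some lines shared a plate: Acta2GFP with part of the PdgfrbGFP cells, and PdgfraGFP with part of the Cspg4dsRED cells.

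Wnt proteins are secreted, lipid-modified ligands that act over short distances through Frizzled receptors with LRP or ROR co-receptors, and some of them stabilise β-catenin while others act without it. R-spondins carry no Wnt activity of their own: they bind LGR receptors and protect Frizzled proteins from the ligases ZNRF3 and RNF43, which raises the response of a cell to Wnt. In epithelial organs much of the supply of both comes from the mesenchyme.

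The labels were checked against marker genes before the members were read. In cluster 10 the mural list of 7 genes (Acta2, Myh11 and others) summed to 10169 reads per 500000, with lines between 7462 and 12208, and the fibroblast list of 6 genes to 1130. In cluster 5 the summed level of Tnc, Bmp5 and Bmp7 was 1040, against 7.31 in the other fibroblast clusters, while Cd34 was 89.5 against 1107. Total reads per cell ran from 50276 to 1446059 with a median of 214893, and the median was 130406 in cluster 10 and 306896 in cluster 6. The clusters were made by the authors from the same counts, so a test between them says how far a difference repeats over mouse lines.

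The members differed widely in how much was read at all. Wnt2 gave 128844 reads in 1147 cells, Wnt2b 13725 reads in 487 cells and Wnt5a 7818 in 368. Wnt11 gave 3708 reads and Wnt4 1839, while Rspo3 had 939 reads in 47 cells and Rspo1 was found in 16 cells. Wnt10a and Rspo2 had 1 read each in the whole table, so their levels are not described further. Per kilobase of exon, the mean level over the fibroblast clusters was 72.7 ± 19.4 (SD, n = 5 lines) reads per 500000 for Wnt2, 5.20 ± 2.26 for Wnt2b, and 1.28 for Wnt5a, 0.80 for Wnt11, 0.47 for Rspo3 and 0.375 for Wnt4.

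By the GENCODE annotation of GRCm38, Wnt2 lies on chromosome 6 from 17988940 to 18030585, Wnt2b on chromosome 3 from 104945272 to 104961921 and Wnt4 on chromosome 4 from 137277489 to 137299726. Wnt5a lies on chromosome 14 from 28504750 to 28527448 and Wnt11 on chromosome 7 from 98835112 to 98855195. Rspo1 lies on chromosome 4 from 124986430 to 125009099 and Rspo3 on chromosome 10 from 29452416 to 29535867. Counts are over the exons of each gene. Wnt2b shares part of its span with Gm43846, which had 28 reads in all cells, and Wnt5a with the antisense gene Gm2670, which had 56.

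The promoters of 3 members are shown because these members carry the contrasts described below: Wnt2 and Wnt2b, which were lower in mural cells, and Wnt4, which was read mainly in cluster 5. Each runs from 250 bases before to 50 bases after the transcript start of RefSeq (build GRCm38.p6), 5′ to 3′ along the gene, and capitals mark the GC box, which reads GGGCGG on 1 strand and therefore appears as CCGCCC when it lies on the other. Wnt2 lies on the minus strand at chr6:18030396-18030695, Wnt2b on the minus strand at chr3:104961660-104961959 and Wnt4 on the plus strand at chr4:137277385-137277684.
Wnt2: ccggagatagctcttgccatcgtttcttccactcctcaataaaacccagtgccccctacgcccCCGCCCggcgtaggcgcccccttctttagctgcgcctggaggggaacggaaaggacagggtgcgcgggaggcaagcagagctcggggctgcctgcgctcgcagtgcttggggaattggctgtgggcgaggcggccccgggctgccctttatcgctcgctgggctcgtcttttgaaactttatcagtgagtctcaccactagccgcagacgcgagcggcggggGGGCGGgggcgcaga
Wnt2b: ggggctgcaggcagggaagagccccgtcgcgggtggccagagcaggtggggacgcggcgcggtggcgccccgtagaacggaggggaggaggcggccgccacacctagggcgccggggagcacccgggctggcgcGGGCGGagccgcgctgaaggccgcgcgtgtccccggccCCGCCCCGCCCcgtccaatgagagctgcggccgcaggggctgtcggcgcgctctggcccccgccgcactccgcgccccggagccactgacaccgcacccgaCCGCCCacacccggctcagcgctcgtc
Wnt4: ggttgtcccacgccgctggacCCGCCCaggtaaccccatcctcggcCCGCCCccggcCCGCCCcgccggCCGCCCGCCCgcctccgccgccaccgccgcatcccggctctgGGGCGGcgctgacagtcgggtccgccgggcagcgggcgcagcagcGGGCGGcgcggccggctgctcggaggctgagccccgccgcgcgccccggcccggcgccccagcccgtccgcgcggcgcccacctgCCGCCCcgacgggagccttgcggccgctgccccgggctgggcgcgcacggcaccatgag
The Wnt2 window held 2 matches, the Wnt2b window 4 and the Wnt4 window 8, and 35.7% of 32851 promoters of this length held at least 1. Their G and C content was 65.7%, 79.7% and 84.3%, against a median of 52.7% over all promoters. None of the 3 held the TATA box TATAAA on either strand, which 13.6% of all promoters did. The same was true of the TCF/LEF motif CTTTGAT, found in 3.73%, and of the AP-1 motif TGACTCA, found in 5.20%. A match is a run of letters and not a measured site.

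Wnt2, a ligand of mesenchymal cells in several organs, was the leading member per kilobase of exon in nearly all fibroblast clusters and was low in mural cells. Its level was highest in cluster 7 at 427 ± 192.6 reads per 500000 (SD, n = 5 lines), followed by cluster 5 at 376 ± 170 (n = 4) and cluster 1 at 349 ± 103.6 (n = 4). These 3 did not differ beyond their spread. Cluster 3 came next at 124.1 ± 23.9 (n = 4), and the step from cluster 1 to cluster 3 was larger than the SD of either, with no overlap between their lines. Below it stood clusters 2 (112.6 ± 82.6), 9 (79.99 ± 80.96), 8 (44.5 ± 30.2), 11 (38.8 ± 19.3), 4 (35.2 ± 48.9), 6 (12.9 ± 13.2) and 10 (2.44 ± 2.69), each within the spread of its neighbour.

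**Figure D1:**
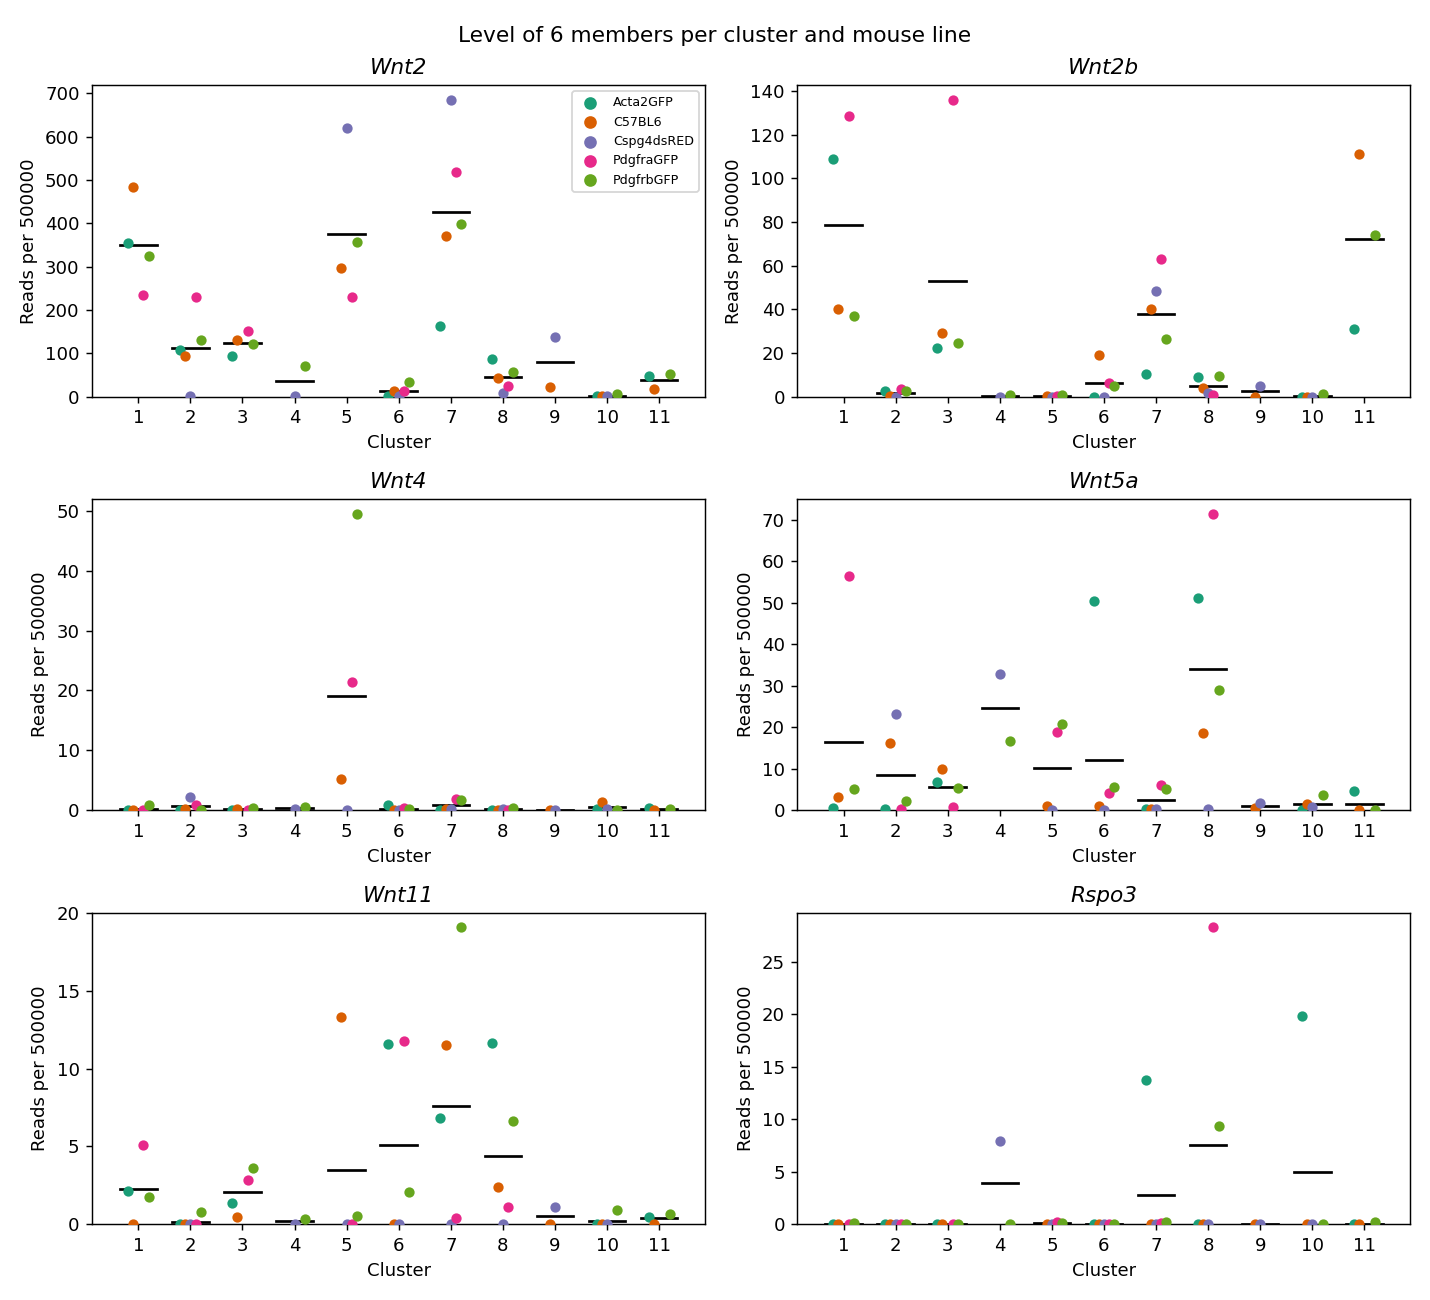
Level of 6 members in each of the 11 clusters, in reads per 500000 endogenous reads on a linear axis that differs between panels. Each point is the mean over the cells of 1 mouse line with at least 3 cells in the cluster, and the black bar is the mean over lines. Wnt2 stands high in clusters 1, 5 and 7, and Wnt4 in cluster 5, where its 4 lines run from 0 to 49.5.

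The lines spread widely within the 3 leading clusters. In cluster 5 the Wnt2 level was 297.4 for C57BL6, 619 for Cspg4dsRED, 230.7 for PdgfraGFP and 357 for PdgfrbGFP, of which the Cspg4dsRED value came from 3 cells. Against the other fibroblast clusters this was a log2 fold change of 0.91 ± 0.29, higher in 4 of 4 lines and not called (edgeR, adjusted p = 0.207). In cluster 1 it was 353 for Acta2GFP, 484 for C57BL6, 233.5 for PdgfraGFP and 323.98 for PdgfrbGFP, also higher in 4 of 4 lines (1.20 ± 0.31) and not called (edgeR, adjusted p = 0.493). The undefined cluster 4 and cluster 9 had 2 usable lines each and were not tested: in cluster 9 the level was 22.7 for C57BL6 (3 cells) and 137.2 for Cspg4dsRED (85 cells).

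In cluster 10 the Wnt2 level was 0.62 in Acta2GFP, 2.01 in C57BL6, 0.76 in Cspg4dsRED and 6.37 in PdgfrbGFP. Every one of these values lay below the lowest of the 5 fibroblast line means, 94.3. On sums per line the log2 fold change was -6.78 ± 0.99 (SE, edgeR quasi-likelihood test, adjusted p = 0.000142), lower in 4 of 4 lines. Wnt2b, a paralogue of Wnt2, was at 0 in the mural cells of Acta2GFP, C57BL6 and Cspg4dsRED and at 1.02 in PdgfrbGFP, against a fibroblast mean of 21.8 ± 9.49 (n = 5). Its log2 fold change was -7.29 ± 1.95 (edgeR, adjusted p = 0.0308), lower in 4 of 4 lines, with 22 reads in the mural cells and 12593 in the fibroblasts. With 1 line fewer it was not called without Acta2GFP (-6.29, adjusted p = 0.107), C57BL6 (-6.77, 0.0774) or Cspg4dsRED (-6.43, 0.144). With the median gene at 0 it was -6.43 (adjusted p = 0.0675).

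Of the 9 members 6 passed the filter on low counts in this comparison and 2 were called, both lower in cluster 10, where 6.2% of 16092 tested genes were called (adjusted p under 0.05, log2 fold change at or beyond 2 in either direction). Of all calls 35.1% were higher in cluster 10, and 69.02% with the median gene at 0. The median log2 fold change was -4.33 over the 6 members and -0.93 over all tested genes, a shift that a scaling on the median gene removes. Wnt5a (-3.83 ± 1.58, edgeR adjusted p = 0.150) and Wnt11 (-4.82 ± 1.79, adjusted p = 0.106) were below the fibroblast value in 4 of 4 lines without passing the test. Wnt4 had a log2 fold change of -0.55 ± 1.57 and was above the fibroblast value in 3 of 4 lines, and its fold change turned to 0.37 with the median gene at 0. These values rest on 9 Wnt4 reads in the mural cells, at most 2 of them in 1 cell. The fibroblast pool includes cluster 5, which held most Wnt4 reads. Rspo1 had no read in the mural cells. It was read in only 16 cells of the whole table, of which 4 held 88.2% of its reads, so this 0 sets no bound on a fold.

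**Figure D2:**
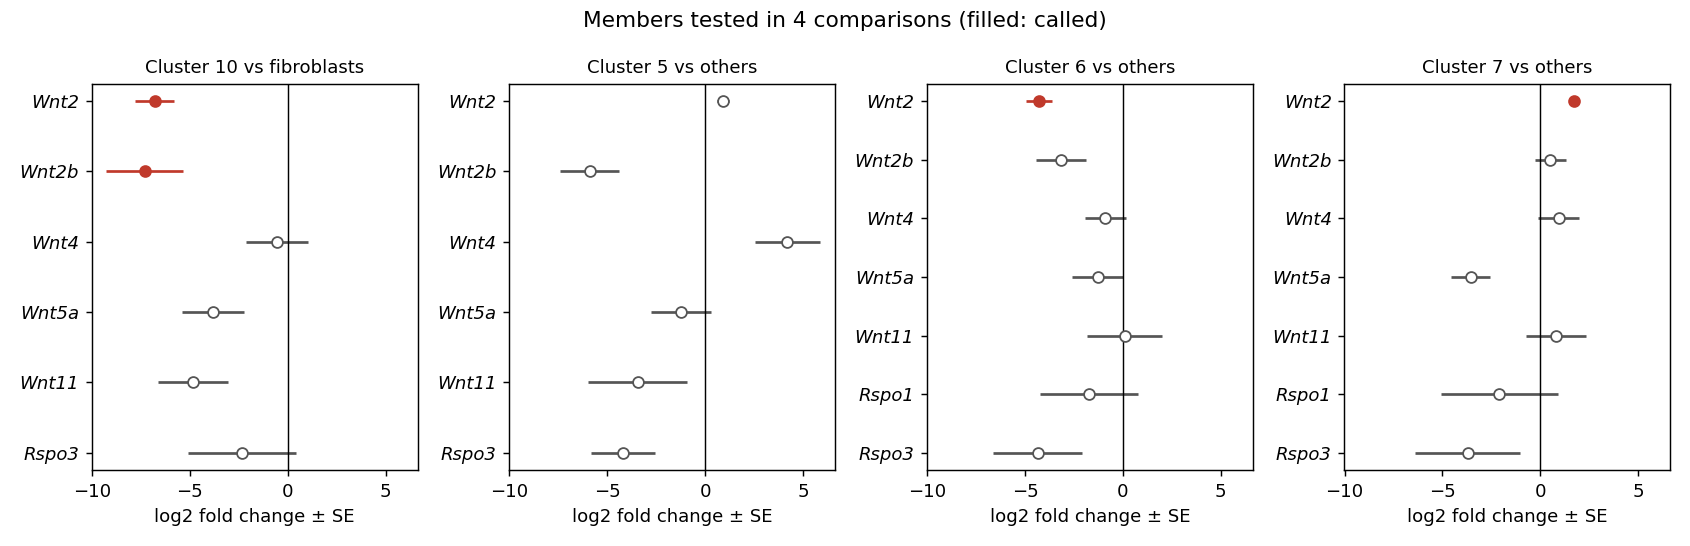
Log2 fold changes with their SE for the members tested in the comparisons of clusters 10, 5, 6 and 7, from sums per mouse line. Filled red points were called and open points were not. Wnt2 is called lower in clusters 10 and 6 and higher in cluster 7, and Wnt2b is called lower in cluster 10.

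Cluster 5, the Tnc-positive cells beneath the epithelium, had a high level of Wnt2, few Wnt2b reads and most of the reads of Wnt4, a ligand best known from kidney and ovary development. The mean Wnt4 level of 19.04 ± 22.3 (n = 4) was above that of the next cluster (0.84 ± 0.89) by less than the SD over its lines. Of all Wnt4 reads 80.8% fell in its 76 cells, and 17 of these cells had at least 10 reads. The Wnt4 level was 5.21 for C57BL6, 21.5 for PdgfraGFP and 49.5 for PdgfrbGFP, and 0 for Cspg4dsRED, which gave 3 cells. The first 3 lie above every line mean of Wnt4 in the other clusters, the highest of which was 2.31. After each cell was thinned to 50000 reads, 35.5% of the cells of cluster 5 (27 of 76, exact 95% interval 24.9 to 47.3%) had a Wnt4 read, against 3.69% of the other fibroblasts (2.73 to 4.88%) and 1.60% of the mural cells.

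The test over lines did not call Wnt4 in cluster 5: its log2 fold change was 4.199 ± 1.68 (edgeR, adjusted p = 0.295), higher in 3 of 4 lines. The adjusted p was 0.000257 with DESeq2, 0.0359 with limma-voom, 0.00425 on sums per plate and line and 0.0772 without Cspg4dsRED. Wnt2b stood at 0.29 for C57BL6, 0 for Cspg4dsRED, 0.21 for PdgfraGFP and 0.91 for PdgfrbGFP, below the 23.6 ± 11.1 (n = 5) of the other fibroblast clusters. Its log2 fold change of -5.90 ± 1.49 was not called by edgeR either (adjusted p = 0.126). It was called lower with no replicate block (adjusted p = 0.0332), with DESeq2 (5.91e-07), with limma-voom (0.01512) and on sums per plate and line (0.01495). Of 9 members 6 were tested and 0 called by edgeR, where 0.762% of 16145 tested genes were called. At an unadjusted p under 0.05 stood 4 members beside 2127 of all genes, and DESeq2 called 2 members and 8.68% of all genes. The median log2 fold change was -2.34 over the 6 members and -0.77 over all genes. The urothelial list summed to between 0 and 68.5 reads per 500000 over the lines of cluster 5 and the mural list to between 325.9 and 746, and their part in the Wnt4 level was not tested.

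Among the other fibroblast clusters Wnt2 was the only member called, in clusters 6 and 7. In cluster 7 its level was 162.96 for Acta2GFP, 370 for C57BL6, 685 for Cspg4dsRED, 518 for PdgfraGFP and 398 for PdgfrbGFP. The log2 fold change against the other fibroblast clusters was 1.71 ± 0.23 (edgeR, adjusted p = 0.0209), higher in 5 of 5 lines, where 0.407% of 16479 genes were called with a log2 fold change at or beyond 1. Leaving out C57BL6, Cspg4dsRED, PdgfraGFP or PdgfrbGFP raised the adjusted p to 0.109, 0.0637, 0.113 and 0.117. The 3 plates of PdgfrbGFP gave mean levels of 374, 414 and 437 in this cluster, a narrower range than that between lines.

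In cluster 6 the Wnt2 level was 2.01 for Acta2GFP, 13.8 for C57BL6, 1.43 for Cspg4dsRED, 13.1 for PdgfraGFP and 33.96 for PdgfrbGFP, and the log2 fold change was -4.27 ± 0.65 (edgeR, adjusted p = 0.0465), lower in 5 of 5 lines, where 0.0246% of 16261 genes were called. This call sat at the threshold: with the low-count filter set by the 2 classes the adjusted p was 0.0614, with no replicate block 0.186, and without Acta2GFP, Cspg4dsRED or PdgfrbGFP it was 0.203, 0.0657 and 0.0791. A read of Wnt2 was still found in 56.7% of the thinned cells of cluster 6 (interval 49.3 to 63.9%) and in 20.0% of the mural cells (13.4 to 28.1%).

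With the main scaling, edgeR called no member in clusters 1, 2, 3, 8 and 11, where 0.0433%, 0.00647%, 0.00608%, 0.0183% and 0.0209% of the tested genes were. At an unadjusted p under 0.05 stood 3, 3, 1, 2 and 2 members, beside 1498, 3607, 1005, 1465 and 769 of all genes. DESeq2 called 1, 2, 1, 1 and 0 members, beside 3.42%, 14.1%, 1.19%, 4.78% and 0.251% of all genes. With the median gene at 0, edgeR called Wnt2 and Wnt2b in cluster 1 and Wnt2b in cluster 11, higher in each case. Under that scaling 1.13% and 2.23% of all tested genes were called in these 2 clusters, of which 98.4% were higher in cluster 1 and every one in cluster 11. Wnt2b had its highest levels in clusters 1 (78.5 ± 47.1, n = 4), 11 (72.02 ± 40.1, n = 3), 3 (52.9 ± 55.4, n = 4) and 7 (37.7 ± 20.3, n = 5), which overlapped. The mean of cluster 3 rests on PdgfraGFP at 135.96 (13 cells): the other 3 lines stood at 22.1, 29.2 and 24.5, below the mean of cluster 7. In cluster 11 it was read at 31.04 in Acta2GFP (43 cells), 111.2 in C57BL6 (3 cells) and 73.8 in PdgfrbGFP (5 cells), all above the other fibroblasts of the same line, yet the edgeR adjusted p was 0.929 with 3 lines. Per kilobase, Wnt2b (17.1) and Wnt2 (17.2) had like mean levels in cluster 11, whereas in cluster 1 Wnt2 was at 154.6 and Wnt2b at 18.7.

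**Figure D3:**
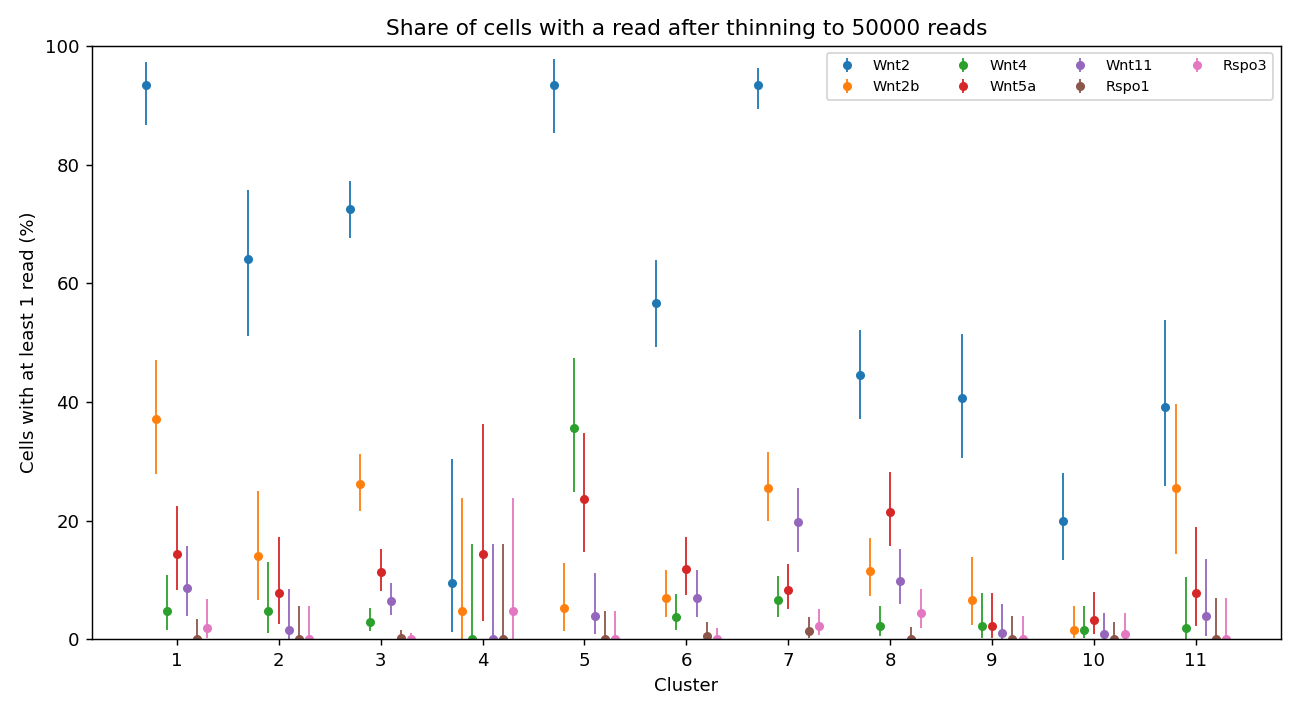
Share of cells with at least 1 read of each of 7 members in each cluster after thinning to 50000 reads, with exact 95% intervals that cover counting error only. Wnt2 reaches 93.3% to 93.4% in clusters 1, 5 and 7, and Wnt4 stands apart in cluster 5 at 35.5%.

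Wnt5a, a ligand known for β-catenin-independent signalling, was read in a minority of cells of every cluster and had its highest mean in cluster 8 (34.1 ± 27.8, n = 5), above cluster 4 (24.7) by less than the SD over its lines. The share of thinned cells with a read was 21.4% there (15.7 to 28.1%) and 23.7% in cluster 5 (14.7 to 34.8%). The level in cluster 8 was 51.1 for Acta2GFP, 18.7 for C57BL6, 0.24 for Cspg4dsRED, 71.5 for PdgfraGFP and 29.1 for PdgfrbGFP. The cluster gave 45.8% of all Wnt5a reads, with 28 cells at 10 reads or more and 1 cell at 1191. The log2 fold change was 1.49 ± 1.04 (edgeR, adjusted p = 0.737), higher in 4 of 5 lines. Within PdgfrbGFP the 3 plates gave 39.5, 2.65 and 40.6, a spread within the range of the lines. In cluster 7 Wnt5a was lower than in the other fibroblasts in 5 of 5 lines (-3.57 ± 0.98, edgeR adjusted p = 0.215).

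Wnt11, which acts in cell movement during development, had 51.996% of its reads in cluster 7. The level was 6.82 for Acta2GFP, 11.5 for C57BL6, 0 for Cspg4dsRED, 0.42 for PdgfraGFP and 19.1 for PdgfrbGFP, and the fold change was not called (0.81 ± 1.53, edgeR adjusted p = 0.924). After thinning, 19.7% of the cells of cluster 7 had a read (14.8 to 25.5%) and 0.800% of mural cells.

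R-spondin reads came from few cells. Rspo3, an R-spondin of stromal cells, had 10 cells with at least 10 reads, and these held 93.9% of its reads: 7 of them were in cluster 8 and 1 each in clusters 4, 7 and 10. In cluster 8 the level was 0 in Acta2GFP, C57BL6 and Cspg4dsRED, 28.3 in PdgfraGFP and 9.35 in PdgfrbGFP, and 1 cell alone held 421 reads. In cluster 10 it was 19.9 in Acta2GFP, from 67 reads of 1 cell, 0.05 in PdgfrbGFP and 0 in the others. Rspo1 had 4 cells with at least 10 reads, 2 of them in cluster 7. Over cells with at least 10 reads of Rspo3, the fibroblast markers summed to 1789 to 16718 reads per 500000, and the mural list to between 4.86 and 10277. The endothelial list had a mean of 82.9 in these cells (median 12.96, highest 569.5), against 7.45 to 19.6 in the cells with at least 10 reads of another member, and its part in the Rspo3 level was not tested. The study kept CD31-positive cells out of the sort and dropped cells with an endothelial expression profile.

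Single cells mostly showed 1 member or none at this depth. Of 1473 thinned cells 397 had no member, 664 had 1, 22.2% had 2, 76 had 3 and 9 had 4. The mean number was 1.62 in cluster 5, 1.60 in cluster 1, 1.57 in cluster 7 and 0.28 in cluster 10. Of the cells with a Wnt2b read 80.1% also had a Wnt2 read, against 64.02% of all cells. Within clusters this was so in some and not in others. The share was higher in clusters 1 (97.4% against 93.3%), 3 (77.8% against 72.6%) and 8 (57.1% against 44.5%). In cluster 6 every cell with a Wnt2b read also had a Wnt2 read, against 56.7% of the cluster. Only 6.95% of the cells of cluster 6 had a Wnt2b read. The share was not higher in clusters 7 (93.1% against 93.4%), 11 (38.5% against 39.2%), 2 (55.6% against 64.1%) and 9 (33.3% against 40.7%). Clusters 4, 5 and 10 had at most 4 cells with a Wnt2b read. In cluster 5 a Wnt2 read was found in 26 of 27 cells with Wnt4, against 71 of all 76 cells of the cluster. In cluster 8, 22 of the 39 cells with Wnt5a had Wnt2 (56.4%), against 44.5% of the cluster.

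**Figure D4:**
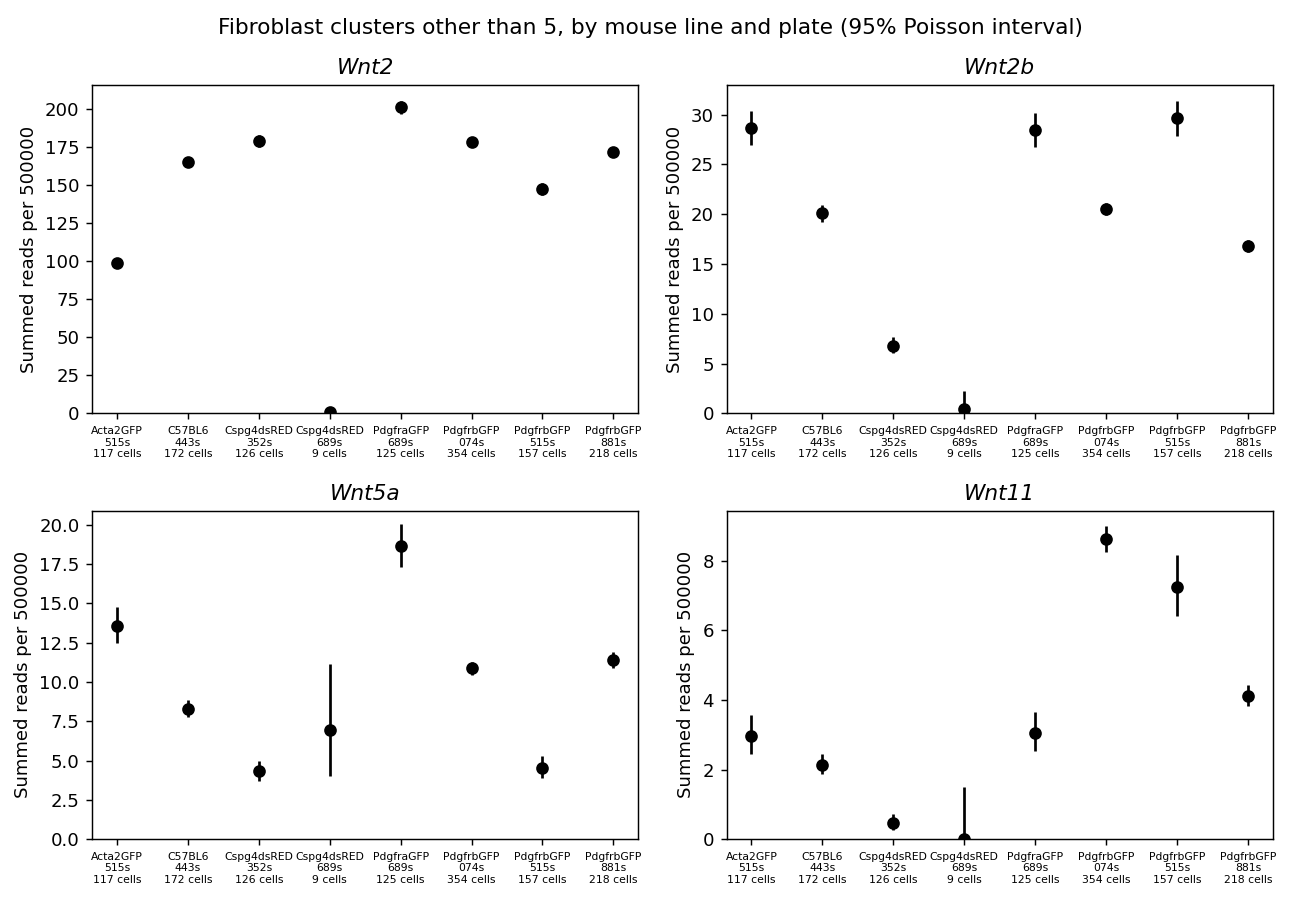
Level of 4 members in the fibroblast clusters other than 5 for each mouse line and plate, from summed reads per 500000, with exact 95% Poisson intervals for counting error. Wnt2 lies between 98.6 and 200.8 in 7 of the 8 units and at 0.82 in the 9 cells of Cspg4dsRED on its smaller plate.

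Across mouse lines, the summed Wnt2 level of the fibroblast clusters other than 5 was 98.6 in Acta2GFP, 164.9 in C57BL6 and 200.8 in PdgfraGFP, and 178.3, 147.2 and 171.5 on the 3 plates of PdgfrbGFP. Cspg4dsRED gave 178.6 on 1 plate and 0.82 on the other, where only 9 cells fell in these clusters. Wnt2b was 6.81 in Cspg4dsRED and 16.8 to 29.6 in the other 6 larger units. The lines were sorted on different reporters and fill the clusters differently. Acta2GFP, C57BL6 and PdgfraGFP each came from 1 plate, so line, sort, plate and cluster makeup cannot be told apart here.

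The genes whose pattern was most like that of a member were ranked by Pearson correlation over 29 sums of at least 10 cells per cluster and line, as a description. For Wnt2 these were Adam23 (r = 0.88), Zdhhc9 (0.87) and Lhfpl2 (0.86), for Wnt2b Nhsl1 (0.87), Pigz (0.80) and Fam174b (0.80), and for Wnt4 Unc13c (0.92), Edil3 (0.91) and Drd4 (0.90). For Wnt5a they were Gnpda1 (0.72), Ankzf1 (0.71) and Stk17b (0.67), for Wnt11 Gm5113 (0.75), Gm42967 (0.70) and Rassf5 (0.70), and for Rspo3 Wasf1 (0.82), Agt (0.74) and Vit (0.73). The sums share libraries and lines.

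The rest of the pathway was read through lists, to be set beside the 6.2% of all tested genes that edgeR called in cluster 10. Of the other Wnt and R-spondin genes 3 of 14 were tested in cluster 10, and Wnt9a was called lower (-6.13 ± 1.51, edgeR adjusted p = 0.0179). For secretion and modification 0 of 3 were called there by edgeR. One of them, Notum, an enzyme that removes the lipid of Wnt proteins, had -6.26 ± 2.01 (adjusted p = 0.0637) and was called lower with DESeq2, limma-voom, median-of-ratios scaling and sums per plate and line. The fibroblast pool holds cluster 5, where Notum was high: its level was 12.3 ± 12.5 over all fibroblast clusters, 0.92 without cluster 5 and 0.086 in cluster 10. Wls, which carries Wnt proteins to the cell surface, stood at 92.8 ± 57.4 reads per 500000 in cluster 10 and 119.3 ± 30.3 in fibroblasts. Of the Wnt receptors 14 of 16 were tested and 2 were lower in cluster 10, Ptk7 (-5.51 ± 1.503) and Fzd1 (-3.89 ± 0.92). DESeq2 called Fzd3 and Ror1 lower as well, and sums per plate and line Fzd3 and Ror2. Over all genes the called shares in cluster 10 were 18.6% with DESeq2, 15.9% on sums per plate and line and 10.01% with limma-voom.

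Wnt antagonists were the list with most calls in cluster 10: 6 of 10 tested were lower, among them Sfrp4 (-7.10 ± 1.45), Sfrp2 (-6.27 ± 1.47), Dkk3 (-6.17 ± 0.66) and Frzb (-5.83 ± 1.52), all of which bind Wnt proteins or belong to the Dickkopf family. The calls also took in Sfrp1 and Kremen1. Kremen1, like Apcdd1 of the same list, is a membrane protein and not secreted. Dkk3, Sfrp2 and Sfrp4 were the 3 still called with the median gene at 0, while the calls of Ptk7, Fzd1, Lgr5 and Wnt9a were lost there, and 3, 2 and 3 antagonists were called without Acta2GFP, Cspg4dsRED and PdgfrbGFP. Lgr5, a receptor for R-spondins, was lower too (-5.83 ± 1.40, edgeR adjusted p = 0.0153), the only one of 5 R-spondin receptors and partners called by edgeR, while DESeq2 also called Lgr6 higher. Of the antagonists DESeq2 called Apcdd1 higher and Dkk2 lower besides the 6. Dkk2 was called lower with limma-voom and with the low-count filter by class as well. The fibroblast pool holds cluster 5, where Dkk2 was high. Leaving out Acta2GFP, Cspg4dsRED or PdgfrbGFP ended the calls of Lgr5, Ptk7 and Wnt9a. Of 9 tested response genes Dact1 was called, lower at -7.13 ± 1.55 but not called without Cspg4dsRED, while Nkd1, a feedback inhibitor, had 3.75 ± 1.16 without passing the test (adjusted p = 0.0555), and was called higher in all other settings except those without Acta2GFP, without Cspg4dsRED and without PdgfrbGFP. DESeq2 also called the response gene Nkd2 lower. The level of Nkd1 was 243.2 ± 184.9 in cluster 10 and 20.5 ± 14.4 in the fibroblast clusters.

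In cluster 5, where 0.762% of all 16145 tested genes were called, edgeR called 4 genes of these lists, all higher than in the other fibroblasts. The antagonist Sfrp1 went the other way (-4.13 ± 0.93, adjusted p = 0.0744): it was called lower without C57BL6, without Cspg4dsRED, with at least 10 cells per line and class and with no low-count filter, and DESeq2, limma-voom and sums per plate and line called both Sfrp1 and Sfrp4 lower. Notum was 8.17 ± 1.11 higher on the log2 scale (edgeR adjusted p = 0.00365), with 176.1 ± 31.02 reads per 500000 against 0.92 in the other fibroblasts. Notum and the 3 genes named next were called as well with the median gene at 0 and without each line in turn. Dkk2 (8.82 ± 0.86, level 441 ± 220.7 against 1.75) and Sfrp2 (3.20 ± 0.57) were the 2 of 11 tested antagonists called higher, and Nkd1 (4.09 ± 0.59) the 1 of 9 response genes. By edgeR the receptor lists held 0 calls of 14 and of 5: Lgr5 had 4.29 ± 1.66 (adjusted p = 0.270). DESeq2 called more genes, namely Lgr5, Axin2, Lef1, Tcf7, Sostdc1 and Wif1 higher and Fzd4 and Wnt9a lower. Of these, limma-voom called Sostdc1, Wif1, Fzd4 and Wnt9a, and sums per plate and line Axin2, Lef1, Sostdc1, Fzd4 and Wnt9a, where 8.68% (DESeq2), 2.76% and 3.00% of all genes were called. Median log2 fold changes were 1.32 for the antagonists and -0.89 for the Wnt receptors, beside -0.77 for all genes.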

How the data were processed

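Single bladder cells were sequenced with Smart-seq2 (no molecular identifiers). The authors aligned reads to GRCm38 (mm10) with TopHat2 and deposited counts per gene and cell; per the labels' processing notes Bowtie, Bowtie2 and featureCounts were used. They removed cells of low depth. The 1 table held 46517 genes, 92 spike-in rows and 1479 cells, with 0 columns unmapped, and spike-ins were left out. Names came from a table of gene IDs (46005 matched), exon lengths from GENCODE M21.

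Counts were summed per mouse line and class (at least 3 cells), and tested with edgeR 4.0.16 in R 4.3.3 (TMM scaling, quasi-likelihood test, Benjamini-Hochberg adjustment over all genes, mouse line as a block, since sums of 1 line share mice and plates). Genes were called with an adjusted p under 0.05 where the log2 fold change reached 2 (clusters 10 and 5) or 1 (other clusters) in either direction. The SE of an edgeR log2 fold change was worked back from the test, as its absolute value divided by the square root of the F statistic. Clusters 4 and 9, with 2 usable lines each, were by choice not tested and got levels only. filterByExpr was first run with the 2 classes as groups. After those fits had been seen it was changed to take its minimum from the fitted model, which brings it in step with an earlier analysis of the same table, and the first filter was kept as an alternative for all comparisons. DESeq2 1.42.0 and limma 3.58.1 were alternatives. The code of the fit was checked on simulated counts with no difference between lines and with large changes only. That check does not give its error rates on these sums.

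Levels are reads per 500000 endogenous reads, first as a mean over the cells of each line, then as mean ± SD over lines. Shares used cells thinned to 50000 reads, with exact Clopper-Pearson 95% intervals, and PCR reads are not independent molecules, so intervals and floors of 3 counts cover counting error only. The members and the gene lists were chosen with earlier results of these data known. The named genes are the 9 members, up to 4 genes per pathway list (called genes of largest fold first, then the most read per kilobase) and the 3 genes most like a member. P-values measure the spread between lines, which may be technical. Reads were not stated to be counted by strand, so Wnt5a and its antisense partner Gm2670 (56 reads) cannot be told apart. The same holds for Wnt11 and Gm8398 (1 read), and for Rspo3 and the antisense Gm48159, which like Gm20276 on the same strand was not analysed here.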

Additional observations from a re-analysis of the deposited data

Results flagged for a closer look

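Of 36 member and cluster combinations with 4 or 5 mouse lines and at least 30 reads, 7 had 1 line far from the others by Dixon's criterion. Its rate of about 1 in 20 holds for normally distributed values. Many of these levels stand at 0 or rest on few cells, so the count cannot be set against that rate. Wnt2b in cluster 3 was 135.96 in PdgfraGFP (13 cells), with the next line at 29.2. Wnt5a was 56.5 in cluster 1 of PdgfraGFP (5 cells), next 5.13, and 50.5 in cluster 6 of Acta2GFP (6 cells), next 5.55. Wnt11 was 13.3 in cluster 5 of C57BL6, next 0.53, and all its reads there came from 1 cell. Rspo3 was 19.9 in cluster 10 of Acta2GFP, next 0.05. Wnt4 was 0.96 in cluster 1 of PdgfrbGFP and Rspo1 was 1.62 in cluster 7 of PdgfrbGFP, with every other line at 0. The part of single cells in these values was not tested beyond the counts given.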

How the results depend on the processing

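Of 85 recounts of the members called, 58 stayed within 1.5 times and 27 did not; the cause was not tested. In cluster 10, 2 members became 4 with DESeq2, and 1 with the median gene at 0 or at least 10 cells per line and class, and leaving out a line gave 1 to 2. Of all genes 6.20% were called there, against 18.6%, 4.83% and 5.79% in these settings and 2.88% to 5.79% without a line. In cluster 5, 0 became 2 with DESeq2, limma-voom or sums per plate and line, and 1 with no replicate block. Beside these, 8.68%, 2.76%, 3.00% and 1.41% of all genes were called. DESeq2 gave 1, 2, 1, 2, 2 and 1 in clusters 1, 2, 3, 6, 7 and 8, beside 3.42%, 14.1%, 1.19%, 2.90%, 4.90% and 4.78% of all genes. The median gene at 0 gave 2 in cluster 1 and 1 in cluster 11, beside 1.13% and 2.23%. In cluster 6, 1 became 0 with no replicate block and with the low-count filter by class, which was added after the data had been seen, and leaving out a line gave 0 to 1 there and in cluster 7. Of all genes 0% and 0.0147% were called in cluster 6 in the first 2 settings. Without a line the shares were 0.00620% to 0.0507% in cluster 6 and 0.132% to 0.378% in cluster 7. The line term pairs sums of the same mice; without this pairing no other count of members changed.

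The log2 fold change of Rspo3 in cluster 10 reversed to 0.048 with DESeq2, 0.41 with limma-voom and 2.72 with no replicate block, and ran from -4.60 to 0.85 when a line was left out (0.085 without PdgfrbGFP and 0.85 without Cspg4dsRED). Wnt4 in cluster 10 reversed to 0.37 with the median gene at 0, and in cluster 5 Wnt5a reversed to 0.050 and Wnt11 to 0.30 with no replicate block. Over all genes, calls in cluster 10 numbered 997, against 2987 with DESeq2, 2445 on sums per plate and line, 1611 with limma-voom, 1538 with no replicate block, and 557, 448 and 513 without Acta2GFP, Cspg4dsRED and PdgfrbGFP. In cluster 5, 0.762% of genes were called, against 8.68% with DESeq2, 3.00% on sums per plate and line, 2.76% with limma-voom, 1.41% with no replicate block and 1.31% without Cspg4dsRED, and 39.02% of the calls were higher, against 70.9% with the median gene at 0. In cluster 7 the share of calls that were higher moved from 26.9% to 70.5% in that way, and 67 calls became 807 with DESeq2. In the comparisons with 7 or fewer calls DESeq2 gave 36 to 2179 and the median gene at 0 gave 7 to 397. Levels moved by over 1 SD in 2 cases and shares left their interval in 49. Depth limits the rare members: at 50000 reads, 0 thinned cells of cluster 3 with a Rspo3 read leave room for up to 0.875% of cells on the floor of 3 counts (exact upper limit 1.07%). That limit is on detection at this depth: without thinning the cluster had 6 Rspo3 reads, at most 2 in 1 cell.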
